A study of Homo sapiens with 8 samples.

Results

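Transcripts of 32 human genes that build, sense or move cholesterol and fatty acids were examined in HEK293, a cell line derived from human embryonic kidney. The 32 genes were listed by symbol, with earlier results of these data known, out of 58440 genes in the deposited count table, and all 32 had enough counts to be tested. PolyA RNA had been sequenced from cells of the genotype labelled HTR1E-stable, which overexpress the serotonin receptor HTR1E, and from cells of the genotype labelled Control. Each genotype was collected with no ligand added or after serotonin, in 4 groups of 2 samples, so that the design asks how the receptor and its ligand alter the transcriptome. Serum was withheld from the cells for 3 h, and serotonin was given at 1 µM for 1 h; the labels word this protocol alike for all samples, those without ligand included. The promoter that drives HTR1E, and whether the stable line is a clone or a pool, are not given in the sources used here. The labels do not say that the 2 samples of a group came from separate cultures, so p-values measure only the spread between these samples, which may be technical.

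Cholesterol is made from acetyl-CoA through the mevalonate pathway, which leads to squalene and, after ring closure, through a series of sterol intermediates. Fatty acids are made from the same acetyl-CoA, then lengthened and desaturated. The genes of both routes share a family of transcription factors, the SREBPs: when membrane sterol is low, SCAP escorts the SREBP precursor from the endoplasmic reticulum to the Golgi, where proteases release the active factor, and when sterol is high, INSIG proteins hold SCAP back.

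The 8 libraries carry a treatment word, Control for no ligand or Serotonin, then a letter A or B, with or without an R. The labels do not say what the letters mark, and no library was assigned to a genotype from its counts. Libraries were therefore compared by letter, and the measured receptor is given beside it: HTR1E stood at 202 to 253 CPM (counts-per-million) in the 4 A libraries and at 0 to 0.399 CPM in the 4 B libraries, where 0 to 3 counts were found. All later CPM values are scaled by edgeR's TMM factors. Library totals ran from 2604885 counts in Control_B to 9072278 in 1 of the no-ligand A libraries. Mitochondrial transcripts took 17.9% to 24.6% of counts in A, but 54.4% in Control_B and 36.3% in Serotonin_BR, which stood apart from the other B libraries with 18.9% and 24.6%. All 6 kidney-line markers examined passed the count filter, which the A libraries alone can satisfy. Their summed levels were 773 to 964 CPM in A and 623 to 752 CPM in B. NEFM was near 0 in B, at 0.58 to 1.34 CPM, against 3.2 to 5.22 CPM in A. PTPRC, a leukocyte marker, was at 0 in all 8 libraries, and the summed level of 4 markers of other cells was 26.8 to 32.2 CPM in A and 12.6 to 44.7 CPM in B. Most of that sum was the fibroblast marker COL1A1, at 26.1 to 31.6 CPM in A and 12.1 to 43.9 CPM in B. The kidney transcription factor PAX2 was at 21.6 CPM in Serotonin_BR and at 1.82 to 5.98 CPM in the other libraries. In bulk RNA, fewer cells of a type and less RNA per cell cannot be told apart. The letter also carries anything else that differed between the A and B cultures, and this and the receptor cannot be told apart here.

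The clearest difference among the 32 genes lay between A and B libraries, and ACSS2, which turns acetate into acetyl-CoA, had the smallest p-value of the members in both treatments. By size it was not the first after serotonin, where CYP51A1 differed by 1.33 without passing the test and SREBF1 by -1.33, against 1.26 for ACSS2. Without ligand, ACSS2 was the 1 member that differed by the edgeR quasi-likelihood test with Benjamini-Hochberg adjustment below 0.05 over 17144 genes, and it was higher in A, where 1.52% of genes were higher and 0.904% were lower. After serotonin, ACSS2 was again higher in A and SREBF1, which encodes an SREBP, was lower, against 2.33% of genes higher and 2.92% lower. DESeq2 split the genes called without ligand 51.7% higher in A, and limma voom with sample quality weights 36.5%, where edgeR gave 62.7%.

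Averaging the A minus B differences of both treatments in the same fit, a comparison chosen after seeing the data, gave 7 members higher in A and 1 lower, against 5.27% of all genes higher and 4.09% lower. The 7 were ACSS2, FADS2, TM7SF2, HMGCS1, NSDHL, FADS1 and STARD4, and the lower one was SREBF1. The median difference of the 32 members was 0.22 on the log2 scale, beside 0.00 over all genes tested, and 23 members had a positive and 9 a negative difference. The same 7 members were those for which every A library lay above every B library, as 9.96% of all genes did. For SREBF1 and FASN every B library lay above every A library, as for 7.62% of genes. The same 8 members were called without Control_B and Serotonin_BR, which leaves 1 B library for each treatment, assumed to vary like the A sets, and the median of the 32 was then 0.07, beside 0.03 for all genes. The calls depended on single libraries. All but that of ACSS2 were lost without either of the no-ligand A libraries or without Serotonin_BR, and more members were called without Control_BR. Calls over all genes fell and rose in the same fits, each of which leaves a set with 1 library. The median of the 32 was 0.09 without Control_B and 0.48 without Control_BR, beside -0.01 and 0.10 for all genes.

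**Figure D1:**
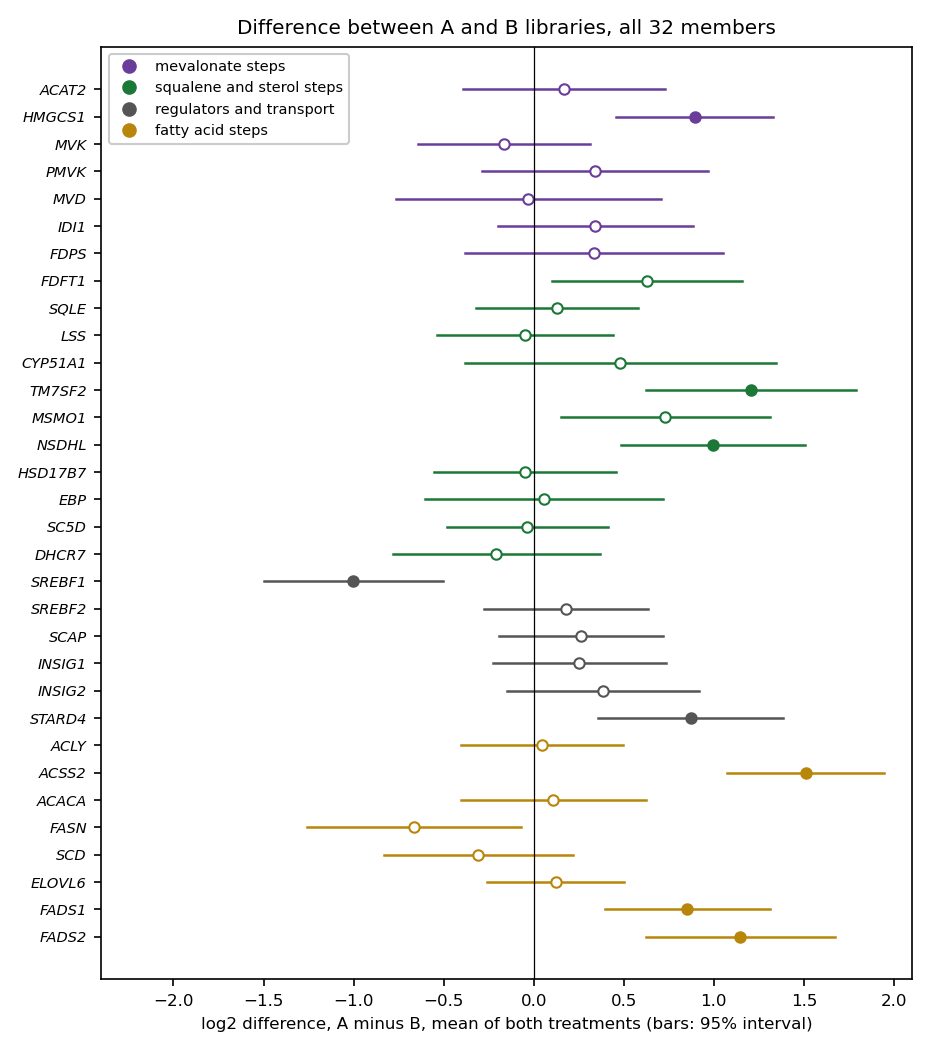
Difference between A and B libraries for each of the 32 members, as the log2 difference averaged over both treatments, with its 95% interval; filled points passed the edgeR test after adjustment. The filled points are 7 to the right of 0 and SREBF1 to the left at -1.0. Open points such as MSMO1, FDFT1 and FASN lie not far from them, and the intervals of most open points cross 0.

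Sequence upstream of the members was read from the RefSeq promoter table (GRCh38.p14, 250 bases before to 50 after a start), which held 39 promoters for 28 of the 32 members. SQLE, FDFT1, ACAT2 and FASN had no entry. Both strands were searched for CCAAT, the box bound by NF-Y, a factor known to act beside SREBPs, and for TCACNCCAC, one form of the SREBP site. CCAAT was in 25 of the 39 promoters (64.1%) beside 34.6% of 35116 promoters in the table. By gene, 21 of the 28 matched members (75.0%) had it in at least 1 promoter, beside 39.7% of 27305 genes in the table. Among the 8 called members the share was the same, 6 of 8 (75.0%): ACSS2, FADS2, HMGCS1, NSDHL, STARD4 and TM7SF2 had it, while FADS1, also higher in A, and SREBF1 did not. TCACNCCAC was in 1 (2.56%), that of SREBF2, beside 1.13% in the table. The shares in the table cover all of its genes, whether or not they passed the count filter, which all members did. The members and the table are therefore unlike sets. A match is a description of these letters and not a bound site. Shown as examples are 3 members higher in A that hold the box and SREBF1, the member lower in A, each up to the first base of the window that an exon of the gene covers, with CCAAT on either strand in capitals: ACSS2 at chr20:34874739-34874941 (+ strand), NSDHL at chrX:152830813-152830966 (+ strand), STARD4 at chr5:111512591-111512785 (- strand) and SREBF1 at chr17:17837003-17837236 (- strand).
ACSS2: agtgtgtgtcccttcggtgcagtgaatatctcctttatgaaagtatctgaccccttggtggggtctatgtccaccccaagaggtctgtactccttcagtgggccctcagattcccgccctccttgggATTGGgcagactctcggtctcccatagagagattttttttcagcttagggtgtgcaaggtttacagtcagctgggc
NSDHL: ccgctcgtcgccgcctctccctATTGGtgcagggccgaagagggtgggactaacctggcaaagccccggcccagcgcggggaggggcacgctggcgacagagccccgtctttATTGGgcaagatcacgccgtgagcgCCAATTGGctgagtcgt
STARD4: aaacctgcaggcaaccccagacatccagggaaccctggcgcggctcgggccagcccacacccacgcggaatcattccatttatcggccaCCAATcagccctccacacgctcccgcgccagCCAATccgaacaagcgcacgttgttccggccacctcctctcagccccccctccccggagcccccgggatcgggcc
SREBF1: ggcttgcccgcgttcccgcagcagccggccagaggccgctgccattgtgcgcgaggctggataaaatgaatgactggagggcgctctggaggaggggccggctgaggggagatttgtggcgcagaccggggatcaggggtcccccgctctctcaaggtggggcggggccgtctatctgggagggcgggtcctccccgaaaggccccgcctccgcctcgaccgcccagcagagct
The stretch of ACSS2 holds 1 match, on the reverse strand. It lies before 1 of 2 ACSS2 starts in the RefSeq table and inside the gene's span in the deposited annotation, which begins at an earlier start, and the other RefSeq promoter (chr20:34876362-34876661) holds no match. That of NSDHL holds 4, of which 2 overlap head to head as CCAATTGG, STARD4 holds 2 in tandem on the forward strand, and SREBF1 holds 0.

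Among the 7 genes of the mevalonate steps, HMGCS1 was higher in A, and the other 6 did not pass the test. HMGCS1 (ENSG00000112972.14, chr5:43289395-43313512, - strand, in hg38 as all gene positions here) encodes the cytosolic synthase that makes HMG-CoA, the substrate of the pathway's committed step. It was at 233 and 239 CPM in the no-ligand A libraries and at 229 and 237 CPM in the A libraries given serotonin. The B libraries held 125 CPM in Control_B, 151 in Control_BR, 110 in Serotonin_B and 121 in Serotonin_BR. Levels in the 4 A libraries were nearly alike and all lay above B. The difference was 0.89 (SE 0.199, 95% interval 0.46 to 1.33) on the log2 scale, or 1.86-fold, with edgeR adjusted p = 0.0186, and 11 of 17 alternative settings kept the call with adjusted p from 0.000504 to 0.132. Within a treatment it did not pass, at 0.77 without ligand (edgeR adjusted p = 0.174) and 1.01 after serotonin (edgeR adjusted p = 0.0591).

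For the remaining 6 mevalonate genes, each 95% interval of the difference held 0. ACAT2, which joins acetyl-CoA units, differed by 0.17, and the kinases MVK and PMVK by -0.16 and 0.34. MVD, the decarboxylase, differed by -0.03, with a range of 24.8 to 139 CPM in B against 51.6 to 81.8 CPM in A. IDI1, the isomerase of the isoprenoid unit, and FDPS, which builds farnesyl diphosphate, differed by 0.34 and 0.33. Control_B was the lowest library for all 6, and for FDPS it held 84.1 CPM where the other 7 libraries held 228 to 326 CPM. Of the mevalonate genes, FDPS had the highest level per kilobase, with a median of 82.5 RPKM (CPM per kilobase of exon) in A and 70.9 in B. Counts at 8 annotated FDPS pseudogenes came to 0.307% of those at FDPS.

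Of 11 genes for the squalene and sterol steps, 2 were higher in A and none was lower. TM7SF2 (ENSG00000149809.14, chr11:65111845-65116384, + strand) encodes a sterol reductase of the endoplasmic reticulum. It held 110 and 99.5 CPM in the no-ligand A libraries, and 128 and 81.5 CPM in the A libraries given serotonin. In B it held 20.2 CPM in Control_B, 45.7 in Control_BR, 53.9 in Serotonin_B and 66.3 in Serotonin_BR. The groups did not overlap, and Control_B was far below the others. The difference was 1.21 (SE 0.265), or 2.31-fold, with edgeR adjusted p = 0.0173, and 12 of 17 alternatives kept the call with adjusted p from 4.75e-05 to 0.0833.

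NSDHL (ENSG00000147383.10, chrX:152830967-152869729, + strand) encodes a decarboxylating dehydrogenase that helps strip methyl groups from the sterol ring. It held 117 and 116 CPM in the no-ligand A libraries and 121 and 104 CPM in the A libraries given serotonin. In B it held 42.6 CPM in Control_B, 85.6 in Control_BR, 50.9 in Serotonin_B and 50.4 in Serotonin_BR. Control_BR was the B library nearest to A, without reaching it. The difference was 0.99 (SE 0.233), or 1.99-fold, with edgeR adjusted p = 0.0228, and 11 of 17 alternatives kept the call with adjusted p from 0.000224 to 0.116.

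MSMO1, the methyl oxidase that acts in the same demethylation as NSDHL, and FDFT1, which makes squalene, came nearest to these without passing by edgeR. Limma voom with sample quality weights called both higher in A. MSMO1 differed by 0.73 (SE 0.264, edgeR adjusted p = 0.11) and FDFT1 by 0.63 (SE 0.239, edgeR adjusted p = 0.127). For both, Control_BR at 138 and 135 CPM fell within the A range, while the other 3 B libraries held 49.3 to 86.7 and 67.4 to 86.2 CPM. SQLE, the squalene epoxidase, differed by 0.13, LSS, which closes the ring, by -0.05, and HSD17B7, a ketone reductase of the demethylation, by -0.05. The late enzymes EBP, SC5D and DHCR7 differed by 0.06, -0.04 and -0.21. CYP51A1, the lanosterol demethylase, was the weakest member, at a median of 1.4 RPKM in A and 1.27 in B, and differed by 0.48 (SE 0.393). Its 286 counts over all libraries are joined by 24.1% as many at 3 pseudogenes, and those of HSD17B7 by 25.1% as many at 2, so the values of both genes are uncertain.

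Among 6 genes for regulation and transport, STARD4 was higher in A and SREBF1 was lower. SREBF1 (ENSG00000072310.16, chr17:17810399-17837002, - strand) encodes the SREBP-1 isoforms, which act mostly on fatty acid synthesis. It held 74.7 and 73.8 CPM in the no-ligand A libraries and 86.6 and 53.5 CPM in the A libraries given serotonin. In B it held 96.2 CPM in Control_B, 140 in Control_BR, 176 in Serotonin_B and 176 in Serotonin_BR. All B libraries lay above all A libraries, with Control_B closest to them. The difference was -1.0 (SE 0.225, 95% interval -1.50 to -0.51), with edgeR adjusted p = 0.0196, and 13 of 17 alternatives kept the call with adjusted p from 4.53e-06 to 0.136. It was -0.68 without ligand (edgeR adjusted p = 0.275) and -1.33 after serotonin (edgeR adjusted p = 0.0397), a call that 11 of 17 alternatives kept. Whether SREBF1 differed more after serotonin was tested as the difference between the responses, -0.65 (95% interval -1.63 to 0.33, edgeR adjusted p = 0.47).

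STARD4 (ENSG00000164211.12, chr5:111496033-111512590, - strand) encodes a carrier that moves cholesterol between membranes. It held 67.1 and 63.6 CPM in the no-ligand A libraries and 51.0 and 68.7 CPM in the A libraries given serotonin. In B it held 40.9 CPM in Control_B, 49.4 in Control_BR, 33.7 in Serotonin_B and 17.3 in Serotonin_BR. The groups nearly met, at 49.4 CPM in Control_BR and 51.0 CPM in an A library given serotonin. The difference was 0.87 (SE 0.234), or 1.83-fold, with edgeR adjusted p = 0.0397, and 12 of 17 alternatives kept the call with adjusted p from 0.006 to 0.153. SREBF2, whose product SREBP-2 acts mostly on cholesterol synthesis, differed by 0.18 (95% interval -0.28 to 0.64), with 295 to 345 CPM in A and 252 to 320 CPM in B. SCAP and the sterol-sensing retention proteins INSIG1 and INSIG2 differed by 0.26, 0.25 and 0.38, and none of these 4 passed the test.

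The 8 fatty acid genes held 3 of the members that were higher in A. ACSS2 (ENSG00000131069.19, chr20:34872146-34927962, + strand), was at 20.8 and 25.9 CPM in the no-ligand A libraries and at 23.8 and 21.6 CPM in the A libraries given serotonin. In B it was at 6.33 CPM in Control_B, 7.15 in Control_BR, 9.4 in Serotonin_B and 9.55 in Serotonin_BR. The highest B library held less than the lowest A library by a wide margin. The difference was 1.51 (SE 0.199, 95% interval 1.07 to 1.95), or 2.85-fold, with edgeR adjusted p = 0.00105, and all 17 alternatives to that averaged comparison kept the call, with adjusted p from 4.89e-07 to 0.0115. Within a treatment it was 1.76 (SE 0.292, edgeR adjusted p = 0.0114) without ligand and 1.26 (SE 0.271, edgeR adjusted p = 0.0262) after serotonin, calls that 14 and 11 of 17 alternatives kept. ACLY, which makes acetyl-CoA from citrate instead, differed by 0.05 (95% interval -0.40 to 0.50).

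FADS2 and FADS1, the delta-6 and delta-5 desaturases of polyunsaturated fatty acids, are neighbours on chromosome 11 and overlap on opposite strands, which the stranded counting separates. FADS1 (ENSG00000149485.18, chr11:61799625-61829318, - strand) lies within the span of FADS2 (ENSG00000134824.13, chr11:61792980-61867354, + strand). FADS2 held 280 and 323 CPM in the no-ligand A libraries and 319 and 257 CPM in the A libraries given serotonin, against 113, 171, 148 and 100 CPM in Control_B, Control_BR, Serotonin_B and Serotonin_BR. It differed by 1.15 (SE 0.239), or 2.21-fold, with edgeR adjusted p = 0.0136, and 13 of 17 alternatives kept the call with adjusted p from 6.33e-05 to 0.0979. FADS1 held 173 and 189 CPM in the no-ligand A libraries and 179 and 166 CPM in the A libraries given serotonin, against 103, 120, 102 and 69.2 CPM in the B libraries in the same order. It differed by 0.85 (SE 0.209), or 1.81-fold, with edgeR adjusted p = 0.0276, and 12 of 17 alternatives kept the call with adjusted p from 0.00288 to 0.172. For both desaturases all A libraries lay above all B libraries, with Serotonin_BR the lowest.

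**Figure D2:**
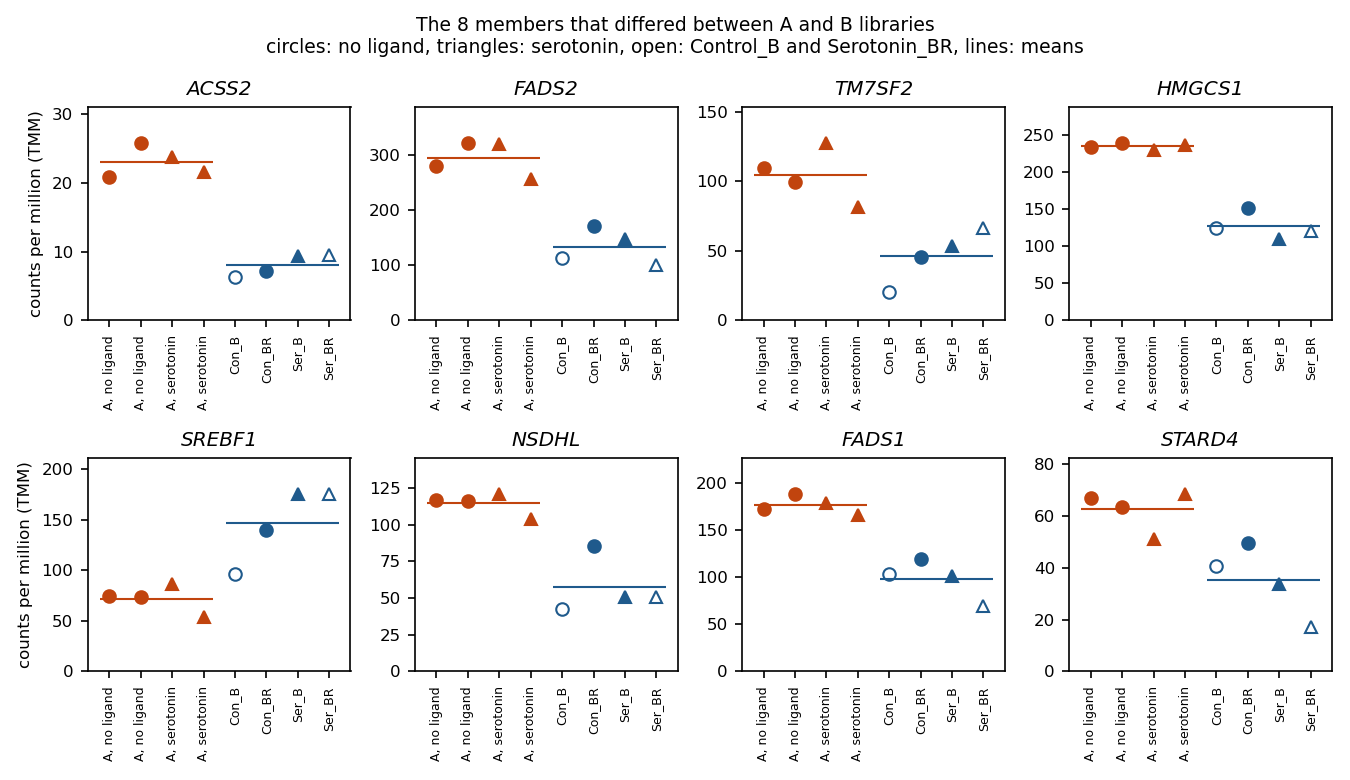
TMM-scaled CPM of the 8 members that differed between A and B, by library (circles no ligand, triangles serotonin, open symbols the libraries with the most mitochondrial counts, lines the mean of 4 libraries). ACSS2 at 20.8 to 25.9 CPM in A against 6.33 to 9.55 CPM in B shows the widest gap for its level, and SREBF1 alone is higher in B.

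None of the genes that make, lengthen or first desaturate saturated chains passed the test. FASN, the fatty acid synthase, ran from 844 to 1005 CPM in A and from 1183 to 2065 CPM in B without overlap, yet its difference of -0.67 (SE 0.27) had edgeR adjusted p = 0.152, and DESeq2 called it lower in A. SCD, which puts the first double bond into saturated chains, differed by -0.31 (SE 0.239), with 667 to 725 CPM in A and a wide 492 to 1252 CPM in B. ACACA, the carboxylase that makes malonyl-CoA, and ELOVL6, an elongase, differed by 0.11 and 0.12. Per kilobase, SCD had a median of 126 RPKM in A and 173 in B and FASN 95.5 and 137, while ACSS2 had 4.21 and 1.54.

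Other genes of lipid metabolism, taken from lists beside the 32, gave few calls in the averaged A minus B comparison. Over all genes tested, 5.27% were higher in A and 4.09% lower. None of 8 partners of sterol sensing passed the edgeR test, though 5 had an unadjusted p below 0.05, beside 25.5% of all genes, and all 8 differences were positive, with a median of 0.49. MBTPS2, the intramembrane protease that releases SREBPs, was nearest at 0.79 (edgeR adjusted p = 0.0681) and was called with no low-count filter, with the R of the name as a replicate block, without Control_B, without Control_BR, without Serotonin_B, or without both Control_B and Serotonin_BR. DESeq2 and limma voom called 0 of the 8. None of 6 tested genes for LXR signalling and efflux passed by edgeR, by DESeq2 or by limma voom, and 0 had an unadjusted p below 0.05. LPCAT3 and MYLIP of this list were lower in A without Control_B and Serotonin_BR, and NR1H2 without Control_B alone. Of 16 further lipid synthesis genes, 1 was higher in A by edgeR: MID1IP1, which promotes assembly of acetyl-CoA carboxylase. It held 40.1 to 57.1 CPM in A and 0.58 to 1.54 CPM in B. The difference was 5.36 (SE 0.3, edgeR adjusted p = 3.61e-06), and no library left out ended its call. Limma voom called 3 of the 16 higher in A, MID1IP1 among them. Of 7 genes for uptake and trafficking, 1 was higher in A: NPC2, which carries cholesterol out of lysosomes, held 53.6 to 68.6 CPM in A and 18.4 to 40.1 CPM in B, a difference of 1.13 (SE 0.244, edgeR adjusted p = 0.0161), a call lost without either of the no-ligand A libraries, without 1 of the A libraries given serotonin or without Serotonin_BR. The kidney-line markers held 1 call in each direction, NEFM at 2.16 and PAX2 at -1.67. NEFM held only 0.58 to 1.34 CPM in B, and limma voom called neither of these genes. Limma voom and DESeq2 called another of these markers, KRT8, higher in A. Of the markers of other cells only COL1A1 had enough counts, at 0.44 (edgeR adjusted p = 0.204). COL1A1 differed by 1.30 without ligand (edgeR adjusted p = 0.0487) and by -0.42 after serotonin (edgeR adjusted p = 0.385). PAX2 was not called when any 1 A library or Serotonin_BR was left out, nor NEFM without 1 of the no-ligand A libraries, and the part of these markers in the results was not tested. Without Control_BR, more of the sterol sensing partners and further synthesis genes were called higher in A, as were more of all genes. The no-ligand arm of B is then Control_B alone.

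In A libraries, where HTR1E was high, serotonin left no detected change in the 32 genes. By edgeR, 0 members were called and 0 had an unadjusted p below 0.05, beside 0% of all genes called and 0.362% below that unadjusted p, and DESeq2 and limma voom also called 0. Differences ran from -0.26 (FDPS) to 0.22 (ACACA), with a median of -0.07 beside -0.02 over all genes. In 8 members both serotonin libraries lay below both no-ligand libraries, as in 14.7% of all genes, and in 0 both lay above, as in 12.3%. The intervals of single members were wide, with the farthest limits at -1.36 (CYP51A1) and 0.97 (MVD). The fit used 1 estimate of the spread for the A and B sets together. Chi-square per gene between the libraries of a set was 4.22 and 22.7 in A, against 154 and 39.5 in B. Intervals and p-values in A therefore also carry the spread of B. An edgeR fit on the 4 A libraries alone called 0 members and 0 genes. In that fit 307 of 16196 genes had an unadjusted p below 0.05. With 2 libraries a set, changes inside a member's own interval were not excluded. HMGCS1 differed by -0.02 (95% interval -0.63 to 0.59) and ACSS2 by -0.04 (95% interval -0.61 to 0.52).

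In B libraries the members varied more, but again 0 were called by edgeR, beside 0.0117% of all genes. An unadjusted p below 0.05 was found for 7 members (21.9%), beside 26.5% of all genes, so the members did not exceed the background. The 7 were CYP51A1, SCD, ACACA, STARD4, ACLY and SQLE with negative and HSD17B7 with a positive difference. CYP51A1 held 7.49 and 7.26 CPM in Control_B and Control_BR and 3.05 and 0.67 CPM in Serotonin_B and Serotonin_BR, a difference of -1.91 (SE 0.589, edgeR adjusted p = 0.0937). SCD held 1252 and 1155 CPM in Control_B and Control_BR and 701 and 492 CPM in Serotonin_B and Serotonin_BR, a difference of -1.01 (SE 0.342, edgeR adjusted p = 0.107). Both serotonin libraries were below both no-ligand libraries for each of these genes, as for 25.5% of all genes. DESeq2 called both lower, where it called 1060 of 17144 genes higher and 539 lower.

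Among members with no overlap in B, 11 were lower after serotonin, as were 25.5% of all genes, and 6 were higher, as were 28.5%. The mevalonate enzymes MVK and MVD and the reductase HSD17B7 had their highest values in Serotonin_BR, at 51.8, 139 and 40.5 CPM. ACACA was at 206 and 139 CPM in Control_B and Control_BR and at 106 and 80.6 CPM in Serotonin_B and Serotonin_BR, a difference of -0.88 (SE 0.333, edgeR adjusted p = 0.132). The 2 sets each contain a library with a high mitochondrial share, Control_B at 54.4% and Serotonin_BR at 36.3%, and the part of these shares in the values was not tested. Without these 2 libraries each arm in B is 1 library, so the 0 members then called say little. Without Control_BR, the no-ligand arm in B is Control_B alone. The median difference of the members was then 0.27, beside 0.15 over all genes, against -0.20 and 0.01 with all libraries.

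**Figure D3:**
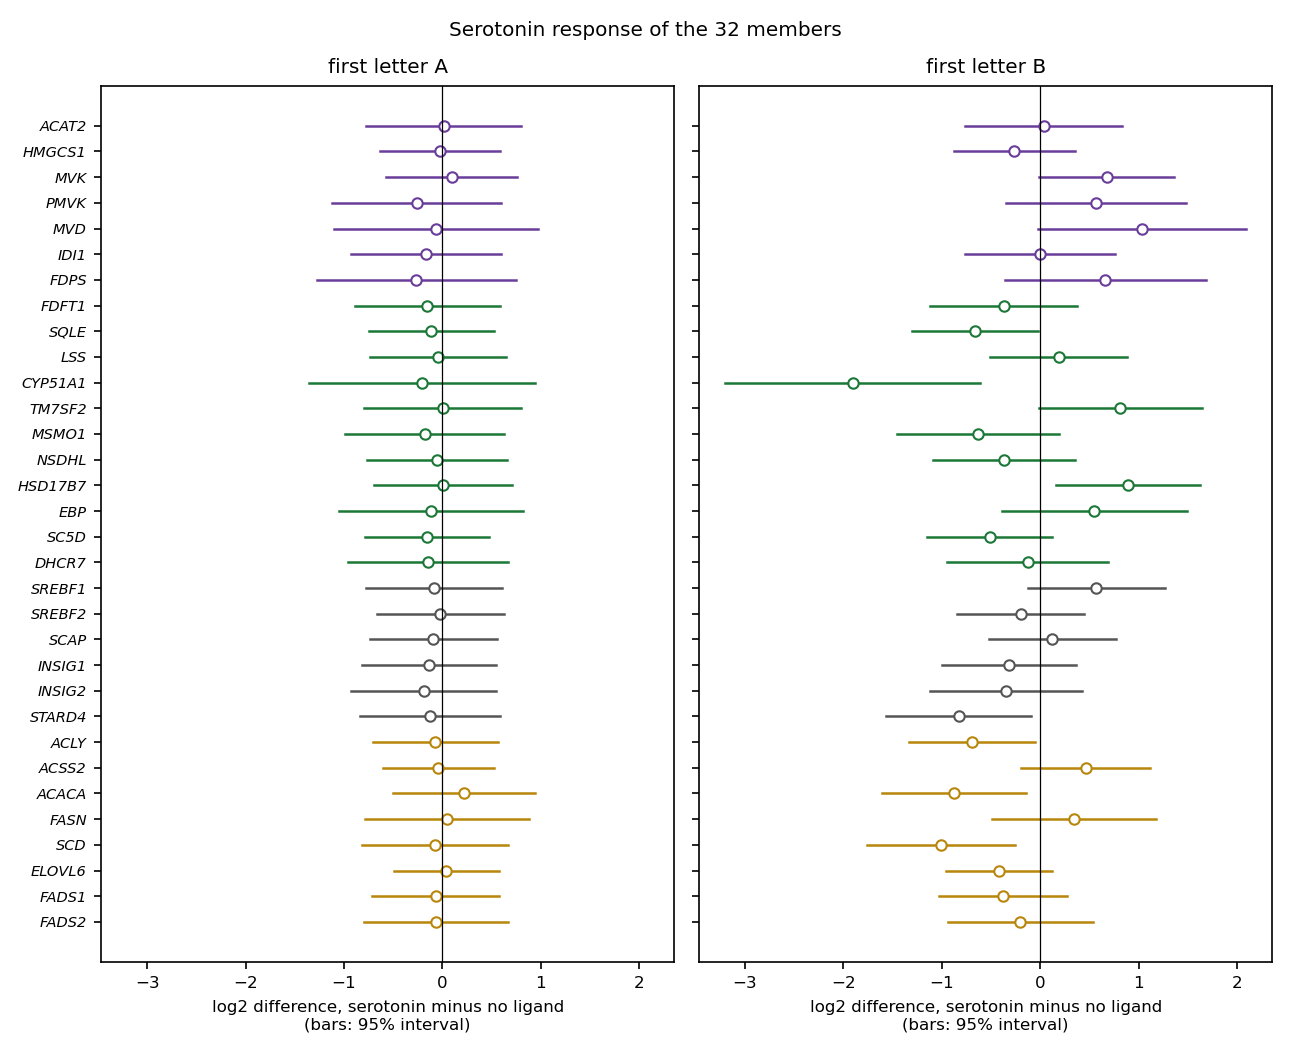
Serotonin minus no ligand for the 32 members on the log2 scale, with 95% intervals, in A (left) and B (right) libraries; colours give the roles (purple mevalonate, green squalene and sterol, grey regulators and transport, gold fatty acid), and no member passed the test. Points in A lie between -0.26 and 0.22, and those in B spread from -1.91 (CYP51A1) to 1.03 (MVD).

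The response averaged over both letters gave 0 members called by edgeR, beside 0.00583% of genes, the single gene being NR4A1, and 2 members (6.25%) had an unadjusted p below 0.05, beside 11.1% of genes. DESeq2 and limma voom also called 0 members in this average, and the member nearest to the threshold was CYP51A1 at -1.06 (SE 0.394, edgeR adjusted p = 0.424). Whether the response differed between A and B was tested directly: 0 members were called by edgeR, beside 0% of genes, 1 had an unadjusted p below 0.05, beside 15.0% of genes, and DESeq2 and limma voom called 0. That 1 was ACACA, with a difference between the responses of 1.10 (95% interval 0.07 to 2.12, edgeR adjusted p = 0.324). Without Control_BR, the no-ligand arm in B is Control_B alone. The median of the members was then 0.074 in the averaged response, beside 0.075 over all genes. In the difference between responses it was -0.37, beside -0.179.

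**Figure D4:**
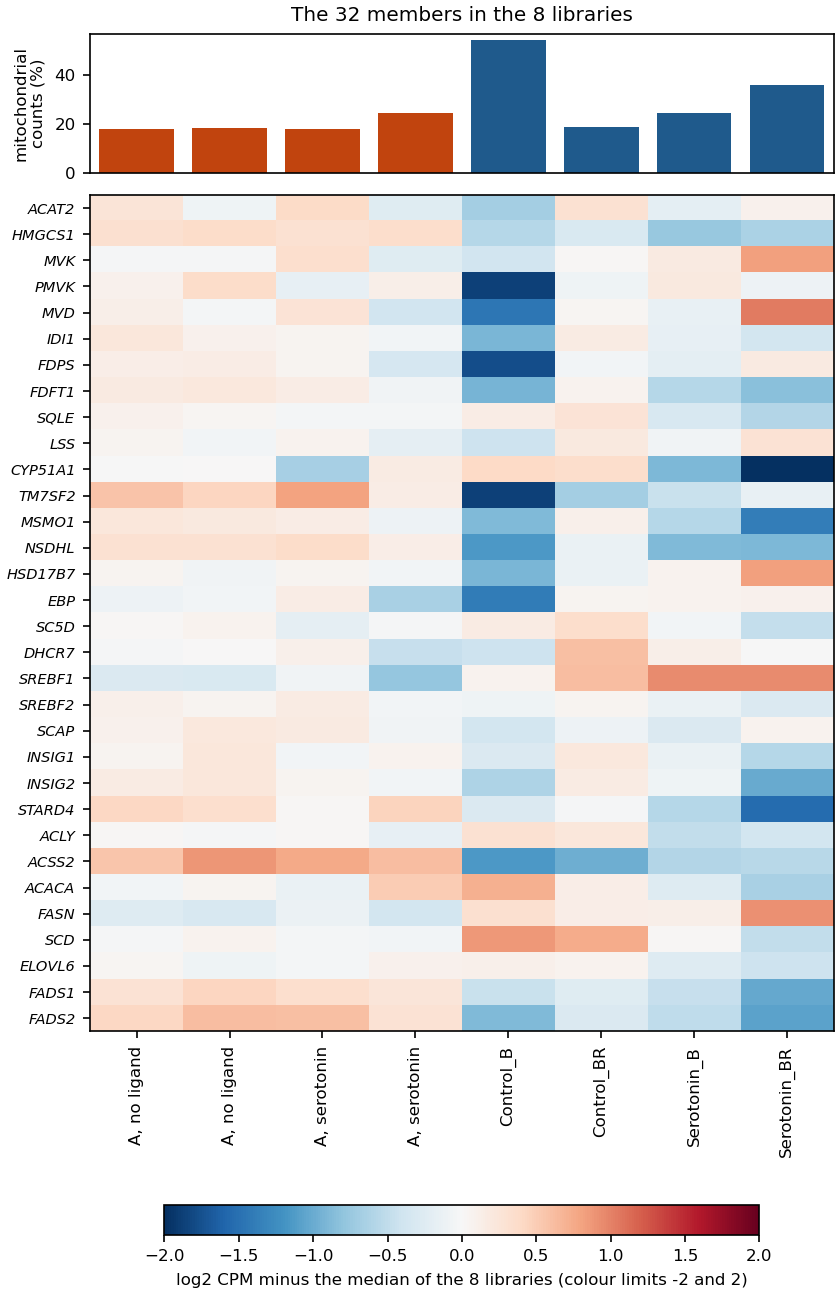
Level of each of the 32 members in each library, as log2 CPM minus the median of the 8 libraries (colours stop at -2 and 2), below the share of mitochondrial counts in percent (orange bars A, blue bars B). Control_B at 54.4% and Serotonin_BR at 36.3% show strong colours in both directions, and the A libraries are paler.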

How the data were processed

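Stranded polyA libraries of 8 samples were analysed from 1 deposited table of raw read counts per gene. The authors made these counts with featureCounts 2.0.1 on GENCODE 28 for hg38, reverse-stranded and on read pairs, per the file headers. Cutadapt 3.4, STAR 2.7.8a, Bowtie2 and SAMtools 1.12 are named in the submitters' processing notes, with no roles given. Gene symbols came from GENCODE v29 for 58320 of 58440 identifiers, and 120 had none.

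Counts were fitted in R 4.3.3 with edgeR 4.0.16 (TMM factors, filterByExpr, quasi-likelihood test, 4 residual degrees of freedom), with 1 coefficient for each of the 4 sets of 2 libraries that share a letter and a treatment. P-values were adjusted by Benjamini-Hochberg over the 17144 genes tested, with a threshold of 0.05. RPKM used the exon length in the table. Alternatives were DESeq2 1.42.0, other scalings and filters, a replicate block, leaving out each library and, chosen after seeing the data, leaving out 2 libraries, leaving out mitochondrial genes and limma 3.58.1 voom weights. The averaged A minus B comparison was also added then. Libraries of a set differed beyond counting noise (chi-square per gene 4.22 to 154), so each counted as 1 sample. The fitting script was tested on simulated data with the same spread in all libraries, which these libraries do not have. All 32 members are reported. Of each related list, at most the 4 genes with the smallest adjusted p are named. The members and the lists were chosen with earlier results of these data known. Totals of 2604885 to 9072278 counts per library set the precision.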

Additional observations from a re-analysis of the deposited data

Results flagged for a closer look

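In 15 of 136 groups of 4 libraries, 1 library lay far from the other 3. Chance alone gives about 1 in 20 for independent values of 1 population. These groups mix letters or treatments and reuse the same libraries, so that rate is only a rough guide. Control_B was that library in most. Among the no-ligand libraries its level was low for INSIG2 (15.0 CPM against 25.7 for the nearest), IDI1 (77.7 against 156), FDFT1 (67.4 against 135), MVD (24.8 against 66.0), MVK (22.5 against 28.95), MSMO1 (70.3 against 138) and EBP (57.6 against 140). Among the B libraries, Control_B was also low for EBP, at 57.6 CPM against 157. Its total of 2604885 counts was low among both the no-ligand and the B libraries, and its mitochondrial share of 54.37% was high among the no-ligand libraries, where the next was 18.91%.

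Among the serotonin libraries, Serotonin_BR was high for HSD17B7 (40.5 CPM against 24.1) and low for SCD (492 CPM against 667). Of the A libraries, 1 given serotonin was low for EBP, at 96.7 CPM against 158 for the nearest serotonin library, and its mitochondrial share of 24.61% was high among the A libraries. The part of these libraries in the results is given beside each count that leaves them out.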

How the results depend on the processing

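Every call of a member kept its direction under each of 17 alternatives, and no called value changed sign. Alternatives moved the counts of calls. Leaving out 1 library at a time, with the lone library of its set assumed to vary like the other sets, gave 1 to 14 members (514 to 3520 genes, 1604 with all libraries) for A against B averaged over treatments, 0 to 12 (60 to 3693 genes, 415 with all) without ligand, and 0 to 10 (83 to 3347 genes, 900 with all) after serotonin. It gave 0 to 8 members (0 to 4846 genes) for the response in B, 0 to 3 (0 to 1650 genes) for the averaged response, 0 to 7 (0 to 3482 genes) for the difference between responses, and 0 members and 0 genes for the response in A. The highest gene counts came without Control_BR in each of the 6 comparisons with a range.

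Without ligand, A against B gave 3 members and 841 genes with DESeq2, 2 members with upper-quartile factors, 2 and 1117 with no low-count filter, 4 and 1542 without Control_B and Serotonin_BR, and 2 members with limma voom, TM7SF2 and FADS2, where ACSS2 was not called. After serotonin it gave 7 and 1515 with DESeq2, 5 and 1985 with no filter, 8 and 1850 without both libraries, and 8 and 1694 with limma voom. The averaged comparison gave 3529 genes without both libraries. The response in B gave 2 members and 1599 genes with DESeq2, 1 and 1830 with no filter, 9 genes in a fit on the 4 B libraries alone, 84 without both libraries and 0 with limma voom. Leaving out both libraries leaves 1 B library for each treatment, so the spread then comes from the A sets alone. The averaged response gave 11 genes with DESeq2, 227 with no filter, 0 with an additive model and 7 without both libraries. The difference between responses gave 70 genes with DESeq2, 570 with no filter and 7 without both libraries. The cause of these shifts was not tested.

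With the R of the name as a replicate block within each letter, calls came to 2 members and 911 genes without ligand, 4 and 1697 after serotonin, 3 and 2218 for the response in B, 27 genes for the averaged response and 250 for the difference between responses. The labels do not say that the R pairs libraries, and deviations of paired names correlated at 0.00 in A and 0.15 in B. With 2 libraries a set, and 2604885 counts in Control_B, changes of low-level members such as CYP51A1 are poorly bounded.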
